A study of Mus musculus with 19 samples.

Results

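The 6 genes described here are Hmga1, Hmga2, Igf2bp1, Igf2bp2, Igf2bp3 and Lin28b, a set of mouse genes that are active in the embryo, low in most adult tissues and often active again in tumours. Their rows were found by symbol in both deposited tables, and the set was drawn up with earlier results of these data known, so counts over the 6 genes are a description. After a filter on low counts, 5 of the 6 were among the 19932 genes tested between NSCLC and normal lung, where Lin28b did not pass, and 6 of the 6 were among the 14360 genes tested between resistant and sensitive NSCLC.

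RNA of mouse organoids, cell cultures grown in 3 dimensions, was measured by bulk sequencing. The groups were non-small cell lung cancer (NSCLC) organoids (4 libraries), organoids of normal lung (3), NSCLC organoids labelled resistant to immunotherapy (9) and NSCLC organoids labelled sensitive to it (3). The labels give no strain, allele, age, drug, clone or time for any group. Totals were 122967042 to 154479953 counts per NSCLC library and 20138197 to 21060762 per normal library, and 11988677 to 24462955 per resistant library and 15292427 to 18716749 per sensitive library. The labels do not state whether the libraries of a group are separate cultures or animals, and p-values measure the spread among these libraries, part or all of which may be technical. Resistant libraries 2 and 3 and resistant libraries 8 and 9 were closer to each other (mean chi-square per gene of 19.5 and 26.9) than any other pair of resistant libraries (63.9 or more), though still further apart than counting noise.

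HMGA proteins are small chromatin proteins that bind AT-rich DNA and bend it for other factors. IGF2BP proteins bind messenger RNAs, first among them that of insulin-like growth factor 2 (Igf2), and keep many of them from decay. LIN28B binds the precursors of the let-7 microRNAs and blocks their maturation, and mature let-7 in turn lowers messenger RNAs that carry a match to its seed in their 3′ UTR, with HMGA2, IGF2BP1 and LIN28B among its best known targets. Mature let-7 is high in most differentiated tissues, adult lung among them.

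Matches to the let-7 seed were searched in the 3′ UTRs of the 6 genes. Hmga2, Igf2bp1 and Lin28b are known targets, so a match in them was known in advance. In RefSeq (GRCm38.p6), 9 mouse mature microRNAs have the same seed, bases 2 to 8 counted from the 5′ end, given in capitals in these 4 of them.
mmu-let-7a-5p: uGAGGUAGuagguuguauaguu
mmu-let-7d-5p: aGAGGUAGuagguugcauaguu
mmu-let-7g-5p: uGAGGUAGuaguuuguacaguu
mmu-miR-98-5p: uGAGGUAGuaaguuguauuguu

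The complement of that seed, CTACCTC, was searched on the transcript strand of the 3′ UTR of 1 main transcript per gene (GENCODE, mm10), and no other motif was searched. The UTRs of all 6 genes held it, with 4 matches each in Hmga2, Igf2bp1 and Lin28b and 1 match each in Hmga1, Igf2bp2 and Igf2bp3. Of the 13222 genes tested between resistant and sensitive NSCLC that have such a UTR, 9.42% held at least 1 match and 11 genes held 4 or more. Length matters to such a count: the 6337-base UTR of Igf2bp1 is the longest of the set and the 1178-base UTR of Hmga1 the shortest. Among tested genes of like UTR length, 35.7% held at least 1 match for Igf2bp1, 25.1% for Lin28b, 16.1% for Hmga2, 13.4% for Igf2bp3, 12.2% for Igf2bp2 and 8.36% for Hmga1. The share with 4 or more matches, the gene itself included, was 0.58% for Igf2bp1, 0.35% for Lin28b and 0.14% for Hmga2. A match to the letters is a description and not a measured binding site, and mature let-7 was not measured here.

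The match of each gene nearest to its stop codon follows with its position (mm10), 5′ to 3′ on the gene's own strand and with the complement of the seed in capitals.
Hmga1, chr17:27563276-27563299, plus strand: ctcctctgttcacaaaCTACCTCt
Hmga2, chr10:120364224-120364247, minus strand: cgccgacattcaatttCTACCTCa
Igf2bp1, chr11:95961778-95961801, minus strand: tgctgtgcgaagtaaaCTACCTCa
Igf2bp2, chr16:22059473-22059496, minus strand: aacacacaaataaaagCTACCTCa
Igf2bp3, chr6:49086787-49086810, minus strand: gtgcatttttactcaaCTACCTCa
Lin28b, chr10:45381022-45381045, minus strand: cacccgggcgggaagtCTACCTCa

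In the first matches of Hmga2 and Lin28b the capitals begin at bases 21 and 36 of the UTR. In 5 of these 6 first matches the base after the capitals is an A, the base that let-7 favours there as background. The later matches of Hmga2 and Lin28b are followed by a T or a C instead. Those of Igf2bp1 are followed by an A, except the last, which is followed by a T. The first match of Hmga1 is followed by a T.

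**Figure D1:**
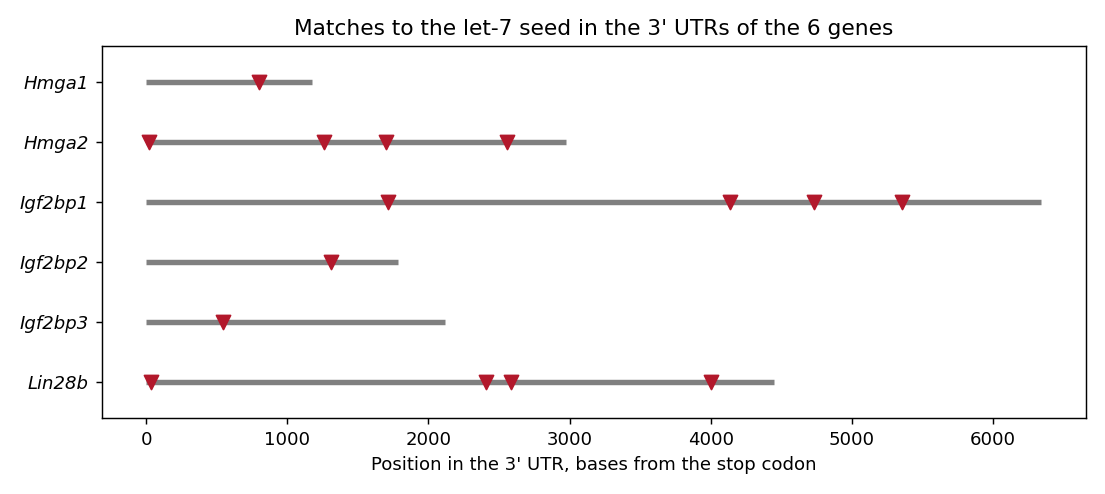
Positions of matches to the let-7 seed (triangles) along the 3′ UTR (grey bars, in bases from the stop codon) of the 6 genes. Hmga2, Igf2bp1 and Lin28b have 4 matches each and the other genes 1 each, and the first match of Hmga2 and of Lin28b lies near the stop codon.

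NSCLC organoids were compared with normal lung organoids to ask which genes change in the tumour. Both HMGA genes and Igf2bp2 were higher in NSCLC, Igf2bp1 and Igf2bp3 did not pass the test, and Lin28b was too low to test. Values are in CPM, read counts scaled to a fixed library size after TMM normalisation, and calls are from edgeR's quasi-likelihood test with Benjamini-Hochberg adjusted p under 0.05 over all genes tested. By that test 3 of the 5 tested genes rose and 0 fell, where 28.5% of all tested genes rose and 25.0% fell. The same 3 genes had every NSCLC library above every normal library, which held for 31.6% of all tested genes.

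Hmga1 (chromosome 17, 27556497 to 27563674, plus strand, mm10) encodes the architectural protein HMGA1. Its level was 851, 781, 2062 and 1161 CPM in NSCLC libraries 1 to 4, against 96.2, 103 and 96.9 CPM in normal libraries 1 to 3. The NSCLC libraries lay far above the normal ones, with library 3 the highest. The log2 fold change was 3.62 ± 0.38 (SE; edgeR adjusted p = 1.47e-04), and 4.29% of tested genes had a larger rise. The mouse genome holds sequences nearly identical to parts of this transcript, so its counts are uncertain to the extent that reads were shared.

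Hmga2 (chromosome 10, 120361275 to 120476469, minus strand) encodes the close relative HMGA2, a protein of the embryo and of undifferentiated lung tumours. NSCLC libraries 1 to 4 had 15.97, 17.2, 29.1 and 19.9 CPM, and normal libraries 1 to 3 had 1.49, 2.33 and 1.62 CPM. Library 3 was again the highest of the NSCLC group, and the groups did not overlap. Per kilobase of transcript, Hmga1 made up 98.8 to 99.2% of the summed Hmga1 and Hmga2 level in NSCLC and 98.8 to 99.2% in normal lung, so both genes rose in about the same proportion.

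Igf2bp2 (chromosome 16, 22059009 to 22163299, minus strand) encodes the IGF2BP protein that adult tissues most often keep. It had 41.2, 42.6, 60.9 and 28.6 CPM in NSCLC libraries 1 to 4 and 23.3, 26.2 and 20.003 CPM in normal libraries. The lowest NSCLC library lay only just above the highest normal one. That gave a log2 fold change of 0.90 ± 0.25 (SE; edgeR adjusted p = 0.0154). The call was lost without normal library 3 (adjusted p = 0.0641).

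Igf2bp1 (chromosome 11, 95957163 to 96005940, minus strand) encodes the founding, embryonic member of the family. Its level was 37.4, 0.933, 1.83 and 1.62 CPM in NSCLC libraries 1 to 4, against 3.18, 7.12 and 9.47 CPM in normal libraries 1 to 3. NSCLC library 1 stood above all normal libraries and the other 3 NSCLC libraries stood below all of them. Over the 4 libraries the log2 fold change was 0.66 ± 1.27 (SE; edgeR adjusted p = 0.683). Without NSCLC library 1 it was -2.21 ± 0.46 (edgeR adjusted p = 0.0046), a call in the other direction, so 1 library decided the sign. Other values of that library stood apart too: Sall4, a stem cell transcription factor, had 0.611 CPM there and at most 0.0697 CPM in the other NSCLC libraries, and the summed gut endoderm markers were 341 CPM there and 1424 to 2299 CPM in the others. Whether these have a part in the Igf2bp1 level was not tested.

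Igf2bp3 (chromosome 6, 49085223 to 49214957, minus strand), the third paralog, was low in both groups. NSCLC libraries 1 to 4 had 0.619, 0.597, 0.256 and 0.132 CPM and normal libraries 1 to 3 had 1.03, 0.615 and 0.693 CPM. The groups overlapped only through the first NSCLC library, which lay a little above the lowest normal one. That gave a log2 fold change of -0.95 ± 0.58 (SE; edgeR adjusted p = 0.197).

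Lin28b (chromosome 10, 45376620 to 45486395, minus strand) had 29, 8, 1 and 1 counts in NSCLC libraries 1 to 4 and 0 counts in each normal library. Because NSCLC libraries held several times the counts, these levels (0.00697 to 0.233 CPM) lie around or under the 0.140 CPM that 3 counts, the limit a count of 0 allows, make in the shallowest normal library, so no fold is given. A difference was not tested here, since the gene did not pass the filter. Of the NSCLC libraries only library 1 (0.233 CPM) lay above that limit, and such limits cover counting error only. Its paralog Lin28a, the family member of pluripotent cells, had 14, 19, 4 and 5 counts in NSCLC and 0 in each normal library. In the authors' deposited table, made with DESeq2 per the submitters' processing notes, Lin28b had a log2 fold change of 3.13 with an adjusted p of 0.226.

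**Figure D2:**
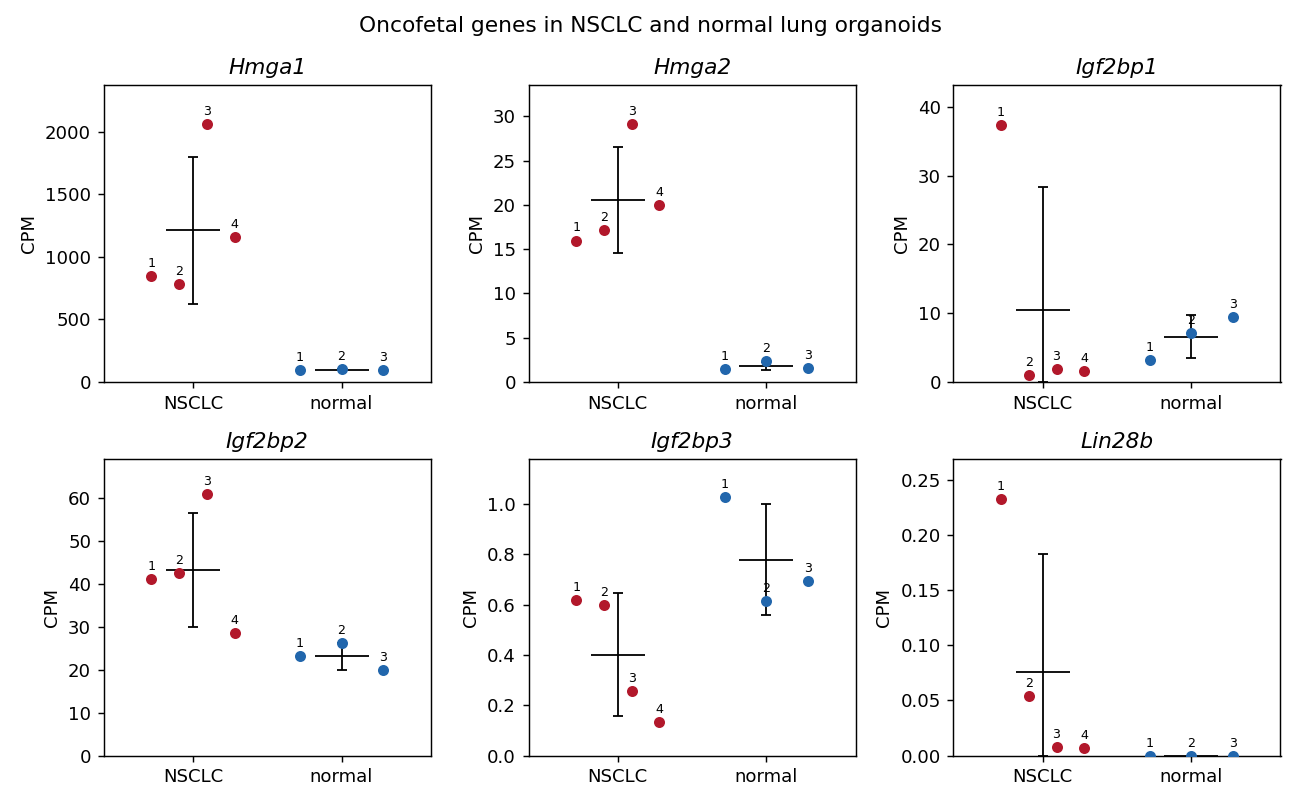
Level of each gene (CPM, linear axes that start at 0) in the 4 NSCLC and 3 normal libraries, each point numbered by its library. Horizontal marks are means and error bars SDs, drawn no lower than 0. Hmga1, Hmga2 and Igf2bp2 were above the normal libraries in every NSCLC library, while Igf2bp1 was high in NSCLC library 1 only among the 4.

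The other genes around the LIN28 and let-7 axis moved in both directions between NSCLC and normal lung. Of the 17 tested genes that process let-7 or work with LIN28, 4 rose and 5 fell, with a median log2 fold change of 0.08, against 0.11 over all genes tested. Trim71, an RNA-binding ubiquitin ligase of the early embryo and itself a let-7 target, had 22.3, 35.7, 7.54 and 16.9 CPM in NSCLC libraries and 0 counts in each normal library. It was thus at least 147-fold higher in NSCLC, taken against 3 counts in the shallowest normal library. Drosha, the nuclease that cuts primary microRNAs, rose (66.4 ± 12.4 CPM in NSCLC and 24.005 ± 1.99 CPM in normal lung; SD, n = 4 and 3). So did Ago2, the microRNA-guided slicer (267 ± 47.6 CPM against 84.9 ± 4.96 CPM). Dicer1, which cuts the precursor, fell to 49.2 ± 4.21 CPM in NSCLC, against 80.0 ± 6.66 CPM in normal lung (log2 fold change -0.70 ± 0.12, edgeR adjusted p = 0.0015). Ago1 (log2 fold change -0.69 ± 0.09, edgeR adjusted p = 5.40e-04), the LIN28 cofactor gene Msi1 and Dis3l2, which degrades tailed let-7 precursors, fell as well.

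Among 29 tested let-7 targets outside the 6 genes, 9 rose and 7 fell, near the shares over all tested genes. Their median was 0.42 on the log2 scale. The cell cycle genes Ccnd2 (log2 fold change 3.42 ± 0.24, edgeR adjusted p = 1.83e-05) and Cdk6 (2.43 ± 0.22) rose. The cytokine gene Il6 fell (0.0289 ± 0.0107 CPM in NSCLC and 6.04 ± 1.73 CPM in normal lung), as did Arid3a and Limd2. Cyclin D1 (Ccnd1) had 777 ± 372 CPM in NSCLC and 555 ± 120 CPM in normal lung and did not pass (edgeR adjusted p = 0.331). Neither did the receptor gene Igf1r, whose log2 fold change was 0.61 ± 0.84 (edgeR adjusted p = 0.57) and whose level was highest in NSCLC library 1 at 129 CPM, against 8.41 to 38.0 CPM in the other 3.

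Of 19 tested transcripts known to be bound by IGF2BP proteins, 7 rose and 4 fell (median log2 fold change 0.17). Myc had 638, 529, 338 and 378 CPM in NSCLC libraries 1 to 4, against 6.26, 14.1 and 7.21 CPM in normal libraries (log2 fold change 5.68 ± 0.42, edgeR adjusted p = 2.42e-05). Cd44, a hyaluronan receptor, rose by 2.62 ± 0.20 and the surface glycoprotein gene Cd24a by 2.61 ± 0.19 on the log2 scale. Lef1, Sirt1 and Ptgs2 fell. Igf2, the transcript that gave the family its name, was low in both groups (0.255 ± 0.137 CPM in NSCLC and 0.559 ± 0.327 CPM in normal lung; edgeR adjusted p = 0.150), and its neighbour H19 had 66 counts in 4 NSCLC libraries and 2 in 3 normal ones. Of 17 genes for protein partners of the IGF2BPs, 8 rose and 0 fell (median 0.35), among them the cold shock protein gene Ybx1 (2070 ± 617 CPM in NSCLC and 324 ± 32.1 CPM in normal lung), Pabpc1 and Syncrip.

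Other oncofetal genes counted 7 higher and 2 lower of 18 tested, with a median log2 fold change of 1.01. Afp, the fetal liver protein alpha-fetoprotein, had 70.7 ± 21.5 CPM in NSCLC and 1.27 ± 0.988 CPM in normal lung (log2 fold change 5.79 ± 0.58, edgeR adjusted p = 1.06e-04), and the ephrin receptor gene Epha2 rose by 1.87 ± 0.26. Sox11 and the imprinted gene Mest fell. The glypican gene Gpc3 had 24.1, 12.5, 7.02 and 0.941 CPM in NSCLC and 30.6, 50.4 and 38.1 CPM in normal lung, which did not pass (edgeR adjusted p = 0.0859). Of 14 other HMG genes 7 rose and 0 fell (median 0.59), among them Hmgb2 (183 ± 52.4 CPM in NSCLC and 24.1 ± 8.66 CPM in normal lung) and Hmgb1, which both encode chromatin proteins, and Tox4.

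Markers of other cell types moved between the groups as well. Proliferation markers rose in 12 of 12 cases, with sums of 848 to 1403 CPM in NSCLC libraries and 217 to 465 CPM in normal ones. Epithelial markers rose in 10 of 12 (12847 to 22207 CPM against 2875 to 3361 CPM), and alveolar type 2 markers fell in 9 of 10 (7909 to 14605 CPM against 61196 to 69390 CPM). Fibroblast markers fell in 10 of 10 (0.302 to 0.699 CPM in NSCLC, with Lum, Tcf21 and Postn at 0 in every NSCLC library, against 77.3 to 437 CPM). Macrophage markers fell in 7 of 10 and rose in 2 (93.9 to 171 CPM against 1610 to 2938 CPM). Gut endoderm markers rose in 8 of 8, with sums of 341 to 2299 CPM in NSCLC libraries and 1.48 to 3.60 CPM in normal ones. Mesenchymal transition markers fell in 7 of 10, though their sums overlapped (76.4 to 664 CPM against 253 to 608 CPM), and endothelial markers fell in 4 of 4 tested (1.36 to 4.79 CPM against 8.08 to 10.9 CPM). In bulk RNA, fewer cells of a type and less RNA per cell cannot be told apart, and the part of these differences in the values above was not tested.

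Resistant NSCLC organoids were then compared with sensitive ones, a comparison that asks which genes differ between tumour organoids with these 2 labels. Hmga1, Hmga2, Igf2bp1, Igf2bp2 and Lin28b rose, and Igf2bp3 did not pass. That is 5 of 6 genes higher and 0 lower, where 19.3% of the 14360 tested genes were called higher and 18.2% lower. In the same 5 genes every resistant library lay above every sensitive one, which held for 14.8% of all tested genes. Lin28b (1 count over the sensitive libraries) and Igf2bp1 (4, 5 and 2 counts) passed the filter only through the resistant libraries. Once tested they could hardly come out other than higher, so their calls and lack of overlap add little to these counts.

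Lin28b, the let-7 blocker, was the gene most nearly absent from the sensitive group. It ranged from 1.03 (resistant library 5) over a median of 4.02 to 8.52 CPM (library 7) in 9 resistant libraries, against 0.0548, 0 and 0 CPM in sensitive libraries 1 to 3. All 3 sensitive libraries together held 1 count and the 9 resistant ones 822. The pooled ratio of resistant to sensitive was 231, with a 95% exact interval from 41.3 to 9122 that covers counting error only. The log2 fold change fitted by edgeR was 7.43 ± 1.01 (SE; adjusted p = 1.61e-04), a value that depends on how the single count is treated. Lin28a had 3 counts over the resistant and 2 over the sensitive libraries, so the LIN28 reads of the resistant libraries were almost wholly from Lin28b.

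Igf2bp1 differed widely among resistant libraries. From library 1 to 9 it had 15.8, 1.63, 7.76, 3.24, 2.02, 1.39, 3.65, 33.7 and 25.1 CPM, against 0.219, 0.305 and 0.135 CPM in sensitive libraries 1 to 3. The highest resistant library (8) was 24.2 times the lowest (6), and even the lowest lay above all sensitive libraries. The fitted log2 fold change was 5.53 ± 1.35 (SE, edgeR adjusted p = 0.0068), and 1.22% of tested genes had a larger rise. The sensitive libraries held only 4, 5 and 2 counts, and sensitive library 3 lay under the 0.202 CPM that 3 counts make there. The size of the fold and its rank are therefore uncertain. Libraries 8 and 9, the highest for Igf2bp1, also had the highest sums of epithelial markers in the resistant group, 2470 and 3210 CPM against 302 to 1046 CPM in the other 7. Library 1, the next highest for Igf2bp1, had 977 CPM, and library 6, the lowest, had 952 CPM. The sensitive libraries, with the least Igf2bp1, had the highest sums (6919 to 9184 CPM). A link was not tested. Without libraries 8 and 9 the log2 fold change of Igf2bp1 was 4.48 ± 0.99 (edgeR adjusted p = 0.0048), so the difference between the groups was smaller and still called.

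Igf2bp2 was the most even of the 3 paralogs. Its level ran from 146 (library 4) over a median of 206 to 400 CPM (library 3) in resistant organoids, against 43.7, 29.2 and 27.9 CPM in sensitive organoids. Every resistant library exceeded every sensitive one by a wide margin. Its log2 fold change was 2.83 ± 0.34 (SE; edgeR adjusted p = 6.58e-05). Per kilobase of transcript, Igf2bp2 made up 92.4 to 99.3% of the summed IGF2BP level in resistant libraries and 93.7 to 96.5% in sensitive ones. Igf2bp1 reached 5.38% of that sum at most in resistant libraries (library 8), against 0.465% at most in sensitive ones.

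Igf2bp3 had 3.51, 1.79, 8.22, 3.10, 6.54, 1.84, 1.59, 7.08 and 9.44 CPM in resistant libraries 1 to 9 and 1.64, 1.28 and 2.02 CPM in sensitive libraries 1 to 3. Resistant libraries 2, 6 and 7 lay within or close to the sensitive range and the other 6 above it. The log2 fold change was 1.53 ± 0.63 (SE) and missed the threshold (edgeR adjusted p = 0.0712). In the authors' deposited table it passed, with a log2 fold change of 1.51 and an adjusted p of 0.0257, as it did with DESeq2 here (adjusted p = 0.0293).

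Hmga2 ranged from 218 (library 6) over a median of 587 to 818 CPM (library 8) in resistant organoids, against 77.8, 107 and 65.1 CPM in sensitive organoids. Resistant libraries 1 and 6 were the lowest and still well above the highest sensitive one. On the log2 scale the difference was 2.63 ± 0.44 (SE; edgeR adjusted p = 6.40e-04). Its pseudogene Hmga2-ps1 had 1.08 to 4.04 CPM in resistant and 1.64 to 2.80 CPM in sensitive libraries and did not pass (edgeR adjusted p = 0.455).

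Hmga1 was low in both groups of this table. Resistant libraries 1 to 9 had 9.43, 24.2, 16.4, 10.3, 8.48, 5.21, 9.11, 7.61 and 7.22 CPM and sensitive libraries 1 to 3 had 3.45, 4.81 and 4.99 CPM. Resistant libraries 2 and 3 were the highest, while library 6 lay only just above the sensitive range. The log2 fold change was 1.30 ± 0.45 (SE; edgeR adjusted p = 0.0352), and the call was lost without any 1 of the sensitive libraries (adjusted p = 0.128, 0.0859 and 0.0822 without library 1, 2 and 3). Hmga1 made up 1.70 to 9.53% of the summed HMGA level per kilobase in resistant and 7.60 to 12.5% in sensitive libraries. The tables were scaled apart, and how shared reads were counted in each is not stated, so neither the level nor this share is compared across them.

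**Figure D3:**
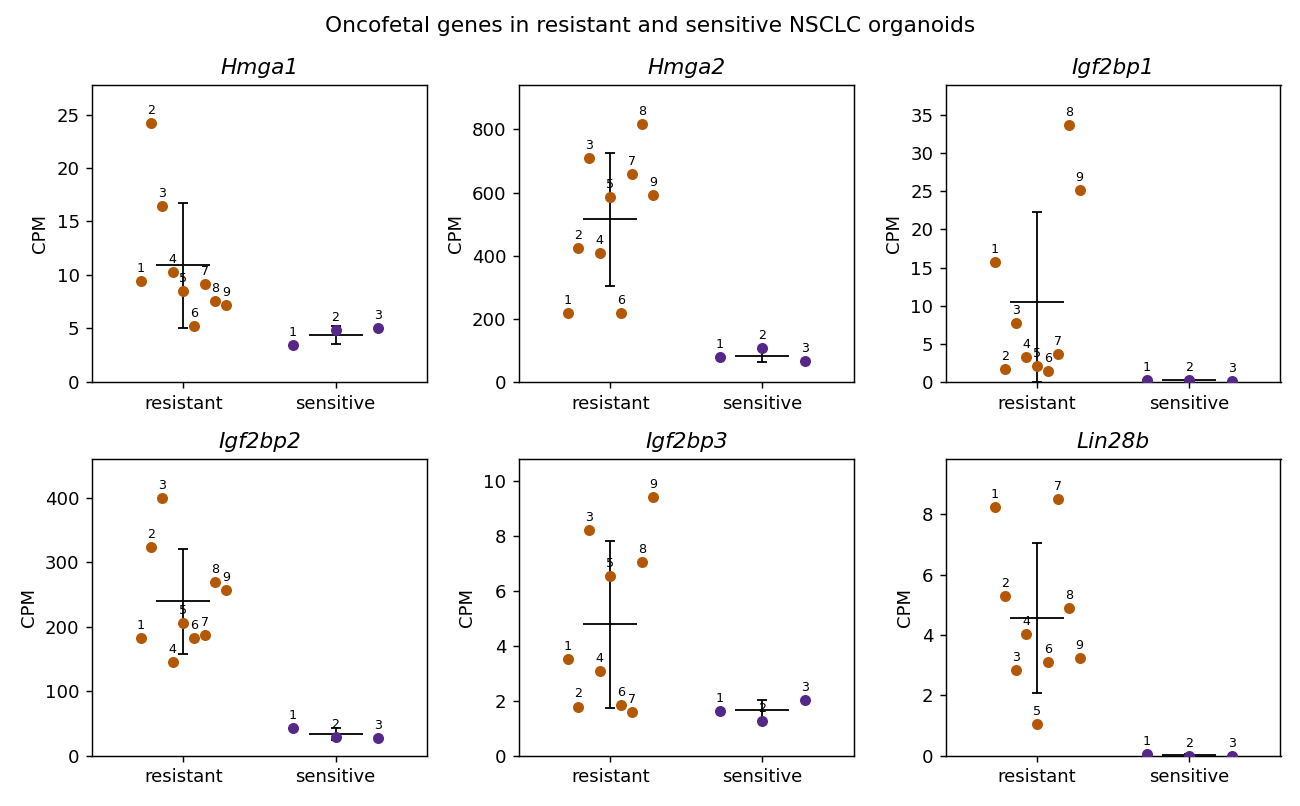
Level of each gene (CPM, linear axes that start at 0) in the 9 resistant and 3 sensitive libraries, each point numbered by its library. Horizontal marks are means and error bars SDs, drawn no lower than 0. Igf2bp3 overlaps between the groups, and Igf2bp1 is highest in resistant libraries 8, 9 and 1.

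The 6 genes did not peak in the same resistant library. Hmga1 was highest in library 2, Igf2bp2 in library 3, Lin28b in library 7, Hmga2 and Igf2bp1 in library 8 and Igf2bp3 in library 9. Between the lowest and the highest resistant library, Igf2bp2 differed 2.74-fold, Hmga2 3.75-fold, Hmga1 4.65-fold, Igf2bp3 5.95-fold, Lin28b 8.25-fold and Igf2bp1 24.2-fold. Library 6 was the lowest for Hmga1, Hmga2 and Igf2bp1, and library 5, the lowest for Lin28b, was above the group median for Igf2bp3.

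**Figure D4:**
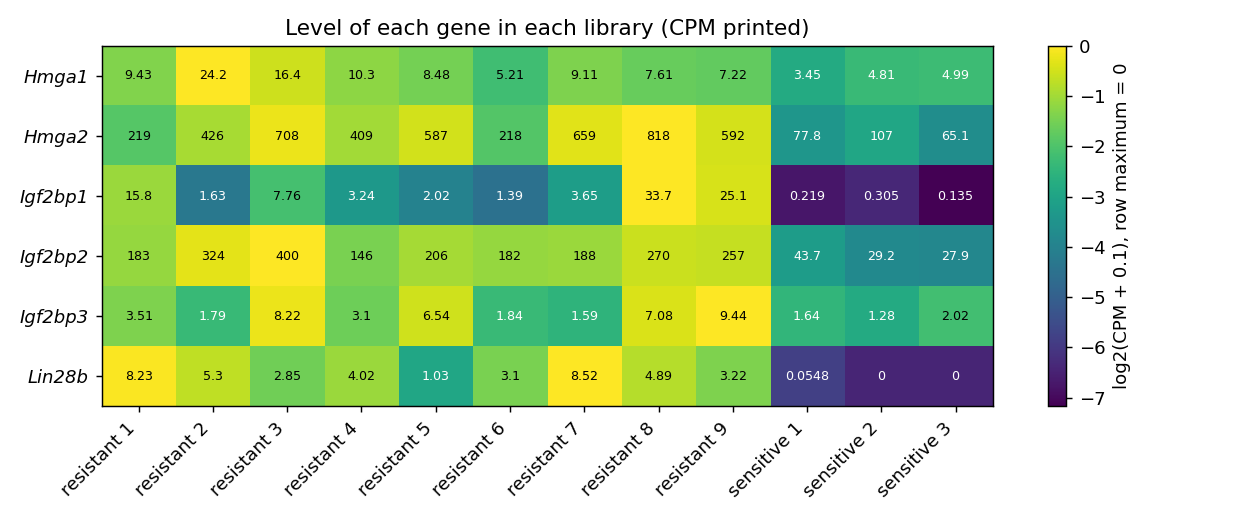
CPM of each gene in each resistant and sensitive library, with the value printed and the colour giving log2(CPM + 0.1) relative to the row's highest library. Hmga2 and Igf2bp2 are high in all resistant libraries, while the peaks of Igf2bp1 (library 8), Lin28b (library 7) and Hmga1 (library 2) lie in different libraries.

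Genes with a like pattern over the 12 libraries were found by Pearson's r of log2 CPM, among 9966 genes whose mean log2 CPM was 3 or more. For Igf2bp2 they were Pdlim7 (r = 0.99), Fez1 (0.99) and Kif2a (0.98), and for Hmga2 they were Ppp1r18, Layn and Ccdc85b (0.98 each). Lin28b was most like Gldc (0.98), Amn (0.97) and Fbn2 (0.97). Lower values were found for Igf2bp1 (Mad2l2 and Ube2v1 at 0.94, Zfp395 at 0.93), Hmga1 (Gclm at 0.93, Tead4 at 0.92, Mpp6 at 0.91) and Igf2bp3 (Rpl7 at 0.88, Rtf1 at 0.87, Rpl4 at 0.84). Over the 7 NSCLC and normal libraries the nearest gene was Mad2l2 for Hmga1 (r = 0.999), Ehbp1l1 for Hmga2 (0.999), Tfcp2l1 for Igf2bp1 (0.99), Pde6d for Igf2bp2 (0.99) and Elmsan1 for Igf2bp3 (0.99). These values describe libraries in separate groups, and the best of so many candidates over so few libraries is a description only.

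The same overlapping lists were counted in the resistant organoids too, where 19.3% of all tested genes rose and 18.2% fell. Of 18 tested let-7 processing genes and LIN28 cofactors, 4 rose and 1 fell, Lin28b itself among the risers, with a median log2 fold change of 0.37, against 0.06 over all genes tested. Prkra, a Dicer partner, had 35.0 ± 6.96 CPM in resistant and 19.6 ± 1.73 CPM in sensitive organoids (SD, n = 9 and 3; log2 fold change 0.84 ± 0.21, edgeR adjusted p = 0.0081), and Zc3h7a rose by 0.77 ± 0.22. The RNA-binding protein gene Msi1 had 331 counts over the resistant libraries and 0 over the sensitive ones, at least 8.72-fold higher against 3 counts in the shallowest sensitive library. The helicase gene Ddx5 fell by 0.41 on the log2 scale (edgeR adjusted p = 0.0352). Dicer1 (122 ± 22.2 CPM in resistant and 89.8 ± 15.0 CPM in sensitive organoids, adjusted p = 0.0786), Dis3l2 (adjusted p = 0.306) and Trim71 (3.46 ± 2.82 CPM and 2.43 ± 1.40 CPM, adjusted p = 0.695) did not pass edgeR's test.

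Of 27 tested let-7 targets outside the 6 genes, 5 rose and 5 fell, near the shares over all tested genes. Their median log2 fold change was 0.06. Myc had a lowest level of 536, a median of 730 and a highest of 1380.2 CPM in resistant libraries, against 376, 330 and 377 CPM in sensitive libraries (log2 fold change 1.22 ± 0.30, edgeR adjusted p = 0.0068). The receptor gene Igf1r (141 ± 39.1 CPM in resistant and 65.4 ± 17.7 CPM in sensitive organoids) and the repressor gene E2f6 (48.7 ± 9.97 CPM and 23.4 ± 5.75 CPM) rose too. Il6, Plagl2 and the TGF-beta receptor gene Tgfbr1 fell, Il6 with a log2 fold change of -2.39 ± 0.58 (edgeR adjusted p = 0.0064). Ccnd1 and Ccnd2 did not pass, with log2 fold changes of 0.06 ± 0.42 and 0.02 ± 0.21. Cdk6 had a log2 fold change of 0.96 ± 0.42 and did not pass (edgeR adjusted p = 0.0890).

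Of 18 tested transcripts bound by IGF2BP proteins, 5 rose and 2 fell (median log2 fold change 0.57). The actin-bundling gene Fscn1 had 171 ± 34.9 CPM in resistant and 19.96 ± 8.83 CPM in sensitive organoids (log2 fold change 3.10 ± 0.30, edgeR adjusted p = 1.74e-05). H19 had 0.0898 to 2.22 CPM in resistant libraries and 0 counts in the sensitive ones, at least 4.13-fold higher against 3 counts in the shallowest sensitive library. Kif5b and Cd24a fell, Cd24a to 73.3 ± 45.6 CPM in resistant organoids, against 277 ± 41.3 CPM in sensitive ones. Igf2 itself was at 0.451 ± 0.298 CPM in resistant and 0.156 ± 0.0792 CPM in sensitive organoids and did not pass (edgeR adjusted p = 0.179). Cd44 (log2 fold change 0.50 ± 0.26, adjusted p = 0.138) and beta-actin (Actb; -0.29 ± 0.15, adjusted p = 0.144) did not pass edgeR's test. Among the 17 protein partners 3 rose (Stau1 and Matr3 among them) and 2 fell (Wtap and Syncrip), each by less than 1 on the log2 scale.

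Other oncofetal genes split in direction, with 5 higher and 4 lower of 15 tested and a median log2 fold change of 0.51. Peg10, an imprinted gene of retrotransposon origin, had 70.8 ± 40.8 CPM in resistant and 1.99 ± 1.21 CPM in sensitive organoids (log2 fold change 5.15 ± 0.75, edgeR adjusted p = 2.54e-04). The transcription factor gene Plag1 had 11.9 ± 6.37 CPM in resistant and 0.555 ± 0.264 CPM in sensitive organoids. Afp fell to 9.93 ± 5.17 CPM in resistant organoids, against 65.6 ± 16.9 CPM in sensitive ones, and Epha2 and Igf2r, the clearance receptor for IGF2, fell as well. Gpc3 had 6.25 and 6.44 CPM in resistant libraries 8 and 9, at most 1.81 CPM in the other 7 and 1.71 to 3.10 CPM in sensitive libraries, with no call (edgeR adjusted p = 0.820). Sall4 had 8 counts over the resistant libraries and 0 over the sensitive ones. Of 14 other HMG genes, Hmgn3 (log2 fold change 1.54 ± 0.36, edgeR adjusted p = 0.0055) and Tox4 rose and 0 fell, and Hmgb2 had 276 ± 116 CPM in resistant and 257 ± 110 CPM in sensitive organoids.

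Markers that moved between these groups were epithelial (7 of 12 fell, 302 to 3210 CPM in resistant and 6919 to 9184 CPM in sensitive libraries), mesenchymal (7 of 10 rose, 2963 to 9607 CPM against 504 to 1212 CPM) and fibroblast (7 of 8 tested rose, 68.3 to 990 CPM against 13.8 to 37.8 CPM). Cldn4 and Esrp1 were at 0 in 1 resistant library each, and the fibroblast gene Postn was at 0 in each sensitive library. Alveolar type 2 markers fell in 5 of 10 (198 to 427 CPM against 1088 to 2074 CPM), with Sftpc and Sftpa1 at 0 in 6 of 9 resistant libraries. Macrophage markers fell in 7 of 10 (408 to 1423 CPM against 2669 to 5786 CPM) and proliferation markers rose in 3 of 12. Gut endoderm markers had sums of 1.03 to 115 CPM in resistant and 169 to 220 CPM in sensitive libraries, which did not overlap, and 1 of 6 tested fell. Resistant libraries 8 and 9, the highest for Igf2bp1, had the highest of these sums in their group (58.2 and 115 CPM, against 31.6 CPM at most in the other 7). Resistant library 1, the next highest for Igf2bp1, had 12.3 CPM, and the sensitive libraries, with the least Igf2bp1, had higher sums than any resistant one. Endothelial sums overlapped (0.786 to 17.2 CPM in resistant and 7.42 to 15.1 CPM in sensitive libraries). Their part in the values of the 6 genes was not tested.

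The 2 comparisons come from separate tables with no library in common, and the difference between their effects was not tested. Set side by side, Hmga2 had log2 fold changes of 3.50 ± 0.31 in NSCLC over normal and 2.63 ± 0.44 in resistant over sensitive organoids, Igf2bp2 of 0.90 ± 0.25 and 2.83 ± 0.34, and Hmga1 of 3.62 ± 0.38 and 1.30 ± 0.45. Lin28b and Igf2bp1 passed in resistant organoids and had no call in NSCLC.

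**Figure D5:**
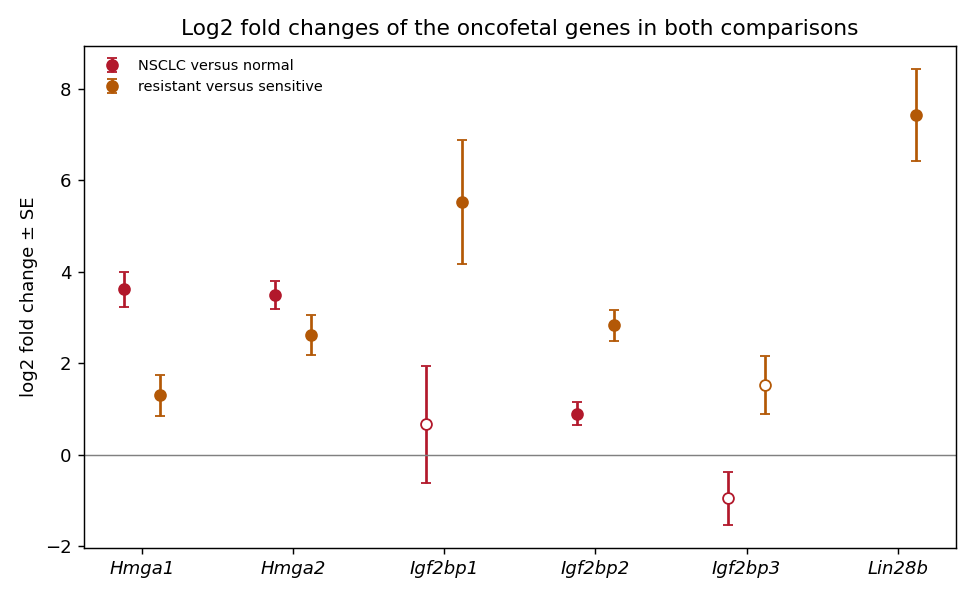
Log2 fold change with SE of each tested gene in NSCLC over normal and in resistant over sensitive organoids, filled where the edgeR adjusted p was under 0.05 and open where it was not. Lin28b was too low to test in NSCLC over normal, and Igf2bp1 and Igf2bp3 have open points there.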

How the data were processed

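Bulk RNA of mouse organoids was sequenced as 150-base paired reads, per the labels' protocols. The submitters' processing notes name STAR 2.6.0a, DESeq2 1.26.0 and the build mm10; for the counter, its use of strand and the annotation, a name or setting is not given in the sources used here. Raw gene counts were deposited in 2 tables, analysed apart. Log2 fold changes and adjusted p-values of the authors stand beside them and are quoted only where named; other scaled columns (7 and 12) were not used.

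Here genes were filtered with filterByExpr and tested with edgeR 4.0.16 (R 4.3.3, TMM, glmQLFTest, Benjamini-Hochberg, threshold 0.05). Counts were simulated with 200 genes changed, among 19550 genes for NSCLC over normal and 14111 for resistant over sensitive. Of changes of 1 on the log2 scale, 17% and 18% were recovered. For changes of 2 the shares were 83% and 67%. Far more genes were called in the data, which makes the adjusted p cutoff less strict there than in the simulation. These shares therefore do not measure the power of the main tests. A gene that did not pass may still have changed. SE is the log2 fold change over the square root of F; means carry the SD. For likeness, log2 CPM used a prior count of 2. Per-kilobase levels used the main GENCODE transcript; UTRs and positions are from GENCODE (mm10) and microRNAs from RefSeq. Exons of Hmga1, Hmga2, Igf2bp1 and Igf2bp3 overlap genes on the opposite strand. Whether reads from either strand were told apart is not known, since the counter's use of strand is not given. A fold against 0 counts is a bound against 3 counts in the shallowest library. Tut4 and Tut7 were matched as Zcchc11 and Zcchc6 in the resistant table.

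The 6 genes, the lists and the tests were chosen with earlier results of these data known. Named genes are the 6, up to 3 called genes per direction of each list (smallest adjusted p) and 17 fixed ones; a few of these are left out of the text. Close resistant libraries (2 and 3, 8 and 9) were also summed as an alternative. With 13 and 21 alternatives per comparison (another scaling, DESeq2 1.42.0, filters, thinning, left-out libraries, the replicate block), each result was recomputed.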

Additional observations from a re-analysis of the deposited data

Results flagged for a closer look

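Outlying libraries were looked for in 46 groups of 4 or 9 libraries over the 6 genes and the fixed named genes, and 4 stood far from their group. For normally distributed values about 1 group in 20 would be flagged by chance. CPM are skewed, above all in genes with few counts, so that rate need not hold here. Igf2bp1 in NSCLC library 1 had 37.4 CPM, while the next library of the group had 1.83 CPM. Sall4 was highest in the same library at 0.611 CPM, with 0.0697 CPM in the next. Lin28a in resistant library 3 had 0.133 CPM, the value of 2 counts, with 0.0462 CPM (1 count) in the next, so this flag has no weight. Actb in resistant library 1 had 1782 CPM, with 1386 CPM in the next.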

How the results depend on the processing

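Of 13 alternatives in NSCLC over normal and 21 in resistant over sensitive organoids, Hmga2 kept its direction and its call in each, with log2 fold changes of 3.27 to 3.69 and 2.30 to 2.85. So did Igf2bp1 (4.48 to 5.82), Igf2bp2 (2.71 to 3.13) and Lin28b (6.99 to 9.43) in resistant organoids and Hmga1 in NSCLC (3.23 to 3.74). In NSCLC, Igf2bp1 turned to -1.15 with the replicate block (adjusted p = 0.584) and, with 1 library left out, ran from -2.21 to 1.03; Igf2bp2 ran from 0.68 to 1.01 and lost its call without normal library 3. In resistant organoids with 1 library left out, Hmga1 ran from 1.06 to 1.39 and lost its call without each sensitive library, Igf2bp3 ran from 1.35 to 1.71 and gained a call without resistant library 7 (adjusted p = 0.0488), genes called higher ran from 1765 to 2867 (2768 with every library; 1800 and 1765 without sensitive library 1 and 3) and called genes of the lists from 21 to 37 (35 with every library; 22 and 21 without sensitive library 1 and 2). Igf2bp3 also gained a call with DESeq2 (1.51). The cause was not tested. Igf2bp3 had no value in NSCLC under the filter of at least 1 CPM. Upper quartile scaling put the median log2 fold change of all genes at -0.08 in NSCLC, against 0.11 with TMM. Counts of list genes stayed within 1.5 times in 349 of the recomputed list counts and moved further in 59, mostly counts of a few genes.

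Same-numbered libraries did not deviate together (r = -0.01, 0.02 and -0.02 for NSCLC with normal, 0.14, 0.15 and -0.09 for resistant with sensitive), so the numbers are not taken as pairs; the replicate block moved no other call of the 6 genes. Summing close resistant libraries, chosen after seeing the data, changed no call of the 6 genes. With 3 normal and 3 sensitive libraries, each comparison rests on a small reference, and levels under 0.140 CPM (normal) or 0.202 CPM (sensitive) could not be told from 0.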
